A study of Bos taurus with 8 samples.

Results

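The carriers of solute carrier family 25 (SLC25) were examined in mural granulosa cells, the cells that line the inner wall of the ovarian follicle, of 8 lactating cows. All rows of the array table with a single gene symbol of the form SLC25A followed by a number were taken, which gave 42 transcript clusters for 41 genes, out of 19901 different single symbols and 26773 clusters in all. SLC25A37 had 2 clusters, of which the one with the higher mean signal stands for the gene unless stated. The choice used symbols and mean signals, not the difference between the groups.

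Heat stress (HS) cows were kept at 28°C, 52% relative humidity and a temperature humidity index (THI) of 76 (n = 4), and pair-fed (PF) cows at 15°C, 64% relative humidity and a THI of 60 (n = 4), in both groups for 96 h in a respiration chamber. PF cows received feed in proportion to the restriction measured beforehand in HS cows. All 8 were German Holstein cows in established lactation. All received 500 µg PGF2α 72 h before slaughter and later 100 µg of a GnRH analog. The design was meant to sample each dominant follicle after an induced LH surge and before ovulation. Whether each follicle was at that stage was not tested here. The granulosa layer was scraped off the opened wall of 1 follicle per cow, and 1 array was hybridized per cow. Signals of single cows are given below in the order of replicates 1 to 4.

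SLC25 proteins are small carriers, nearly all of them in the inner mitochondrial membrane, that exchange ADP for ATP, phosphate, organic acids, amino acids, nucleotides, cofactors, acylcarnitines and iron between the cytosol and the matrix. They are made in the cytosol and inserted by the TOM and TIM import machinery. Granulosa cells of a follicle that has received the LH signal begin to make progesterone, and the first step of that synthesis, the cleavage of the cholesterol side chain, takes place inside mitochondria. Roles given below are known mainly from human and rodent cells.

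The array signals are log2 values of the robust multichip average (RMA). They can be compared between arrays for the same cluster, but not between clusters as levels of different genes. Array medians lay between 5.27 and 5.37 in HS and between 5.33 and 5.44 in PF. All 13 granulosa markers examined were measured, with list means of 8.51 to 8.96 on the HS arrays and 7.68 to 8.51 on the PF arrays. The highest list mean was that of HS replicate 4, which differed from the other arrays in single markers. Its CYP19A1 signal was 10.65, against 4.42 to 6.92 on the other 7 arrays. Its INHBA signal (10.89) was the highest and its STAR signal (5.25) the lowest of the 8 arrays. PF replicate 3 had the lowest list mean. Its HSD3B1 (3β-hydroxysteroid dehydrogenase) signal was 7.36 and its INHA (inhibin α) signal 8.005, whereas the lowest signals on the other 7 arrays were 10.32 and 10.47. The list did not go 1 way in this cow. PF replicate 3 was the lowest array for 8 of the 13 markers and the highest for 1, FOXL2 (8.25). Its CYP19A1 (6.92), INHBA (9.97) and FSHR (8.57) signals were above those of the other PF arrays. Markers of several other cell types were lower on average in HS. This held for all 10 fibroblast and smooth muscle markers (list means 7.00 to 9.09 in HS and 7.49 to 9.87 in PF), all 8 endothelial markers (5.58 to 7.98 in HS and 5.70 to 8.64 in PF), all 8 myeloid markers (5.69 to 6.81 in HS and 5.83 to 8.66 in PF) and all 9 lymphocyte and pan-leukocyte markers (4.32 to 4.88 in HS and 4.51 to 5.54 in PF). All 8 myeloid markers were highest in PF replicate 3. The median log2 fold changes of these lists, in the order given, were -0.88, -0.89, -0.92 and -0.43. Without PF replicate 3 they were -0.80, -0.83, -0.35 and -0.30, with no marker higher in HS. Without PF replicates 1 and 3, a setting chosen after the data were seen, they were -0.30, -0.08, 0.001 and -0.15. The lowest PF mean of each list, that of PF replicate 2, lay inside the HS range. The theca list gave means of 7.41 to 8.05 in HS and 6.32 to 8.07 in PF, and among its 4 genes INSL3 had 10.37 to 11.19 in HS and 8.30 to 11.34 in PF, so that RNA of theca cells cannot be taken as absent. In contrast to those lists, 3 of the 4 theca genes had a higher mean in HS, and PTCH1, a receptor of the hedgehog pathway, met the study's thresholds given below (log2 fold change 0.95, adjusted p = 0.683, and 0.78 without PF replicate 3). Without PF replicate 3, 2 of the 4 were higher. The part of these cells in the carrier signals was not tested. In such bulk samples, fewer cells of a type and less RNA per cell cannot be told apart.

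Over the family as a whole, more carriers had a higher than a lower mean in HS, and few passed a test. Of the 41 carriers, 24 had a higher and 17 a lower mean in HS, that is 58.5% higher, against 46.0% of all clusters. Of the 35 carriers with a mean log2 signal of at least 5, 23 were higher (65.7%) with a median log2 fold change of 0.19, against 53.0% and a median of 0.02 over the clusters above that limit. Without PF replicate 3, 23 of these 35 carriers were again higher, and their median was 0.11. The median log2 fold change, HS minus PF, was 0.16 over the carriers and -0.02 over all clusters, and the carriers ranged from -0.56 to 0.81. The study's thresholds ask for a fold change of more than 1.5 in either direction together with an unadjusted p below 0.05. Only SLC25A13 met them in limma, which is 2.44% of the carriers beside 2.21% of all clusters (1.58% as higher and 0.627% as lower in HS). An unadjusted p under 0.05 was found for 2 carriers, SLC25A13 and SLC25A45, or 4.88% beside 7.20% of all clusters. After Benjamini-Hochberg adjustment over all clusters no carrier had an adjusted p under 0.05 in limma, and 0.00% of all clusters had one. The adjusted p of the carriers lay between 0.683 and 0.991. The analysis of variance of the study, run here as the methods' t-test since it compares 2 groups, gave 0 carriers after adjustment and 1 with an unadjusted p under 0.05 (SLC25A45). In no carrier were the 4 HS and the 4 PF values free of overlap, as they were in 4.64% of all clusters.

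PF replicate 3 set much of the size of these differences, but the number of carriers higher in HS was the same without it. PF replicate 3 was the lowest of the 8 arrays for 16 carriers (39.0%), against 22.8% of all clusters, and the highest for 8 (19.5%), against 26.1%. Among the 10 carriers with a mean signal of at least 8, a limit chosen after the values were seen, it was the lowest for 8, or 80.0%, against 47.8% of the 3536 clusters above that limit. Its median deviation from the mean of the 8 arrays was -0.74 over those 10 carriers and -0.22 over those clusters. The mean over the 41 carriers was 6.74 ± 0.05 on the HS arrays and 6.62 ± 0.14 on the PF arrays (SD, n = 4 each), and it was lowest in PF replicate 3, at 6.44. Without PF replicate 3 the median log2 fold change of the carriers was 0.06, with 24 higher and 17 lower (58.5% higher, beside 47.9% of all clusters). The absolute difference of 27 carriers was smaller without it and 8 changed sign, and SLC25A13 and SLC25A27 met the thresholds, 2 carriers beside 3.39% of all clusters. Without PF replicates 1 and 3 together, a setting chosen after the data were seen, the median was 0.02 and SLC25A13 alone met them, beside 2.53% of all clusters.

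**Figure D1:**
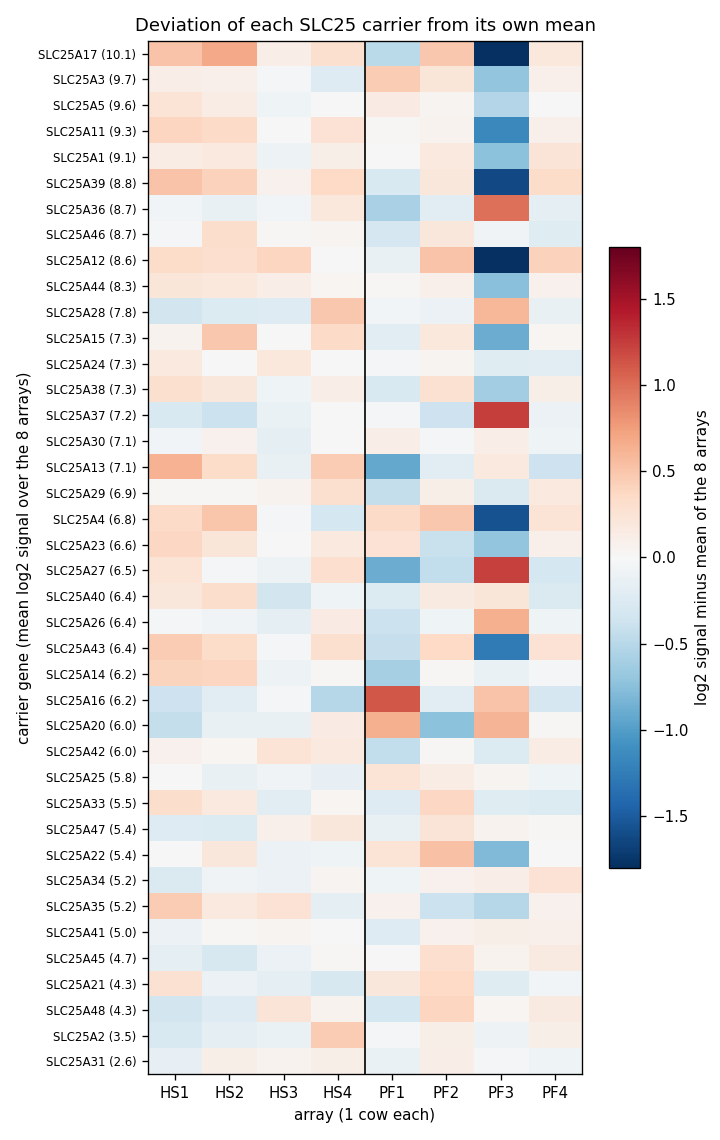
Deviation of the log2 signal of each of 40 SLC25 carriers (rows, ordered by mean log2 signal, given in brackets) from its own mean over the 8 arrays, by array (columns, 4 HS left and 4 PF right of the line). Red is above and blue below the carrier's mean, and PF replicate 3 was the lowest array for 8 of the 10 carriers in the upper rows and the highest for SLC25A36, SLC25A37 and SLC25A27 among others.

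The carriers, like most clusters, varied more among PF than among HS cows. The median SD of a carrier was 0.17 over the HS arrays and 0.35 over the PF arrays, beside 0.15 and 0.25 over all clusters. Of the 41, 34 (82.9%) had the larger SD in PF, beside 75.5% of all clusters. Without PF replicate 3 the median SD in PF was 0.20 over the carriers and 0.19 over all clusters. The SD in PF was then above that in HS for 30 carriers, and the share over all clusters is not given here. The carriers with the largest SD in PF were SLC25A12 (0.18 in HS and 1.07 in PF), SLC25A17 (0.25 in HS and 1.01 in PF) and SLC25A4 (0.37 in HS and 0.97 in PF).

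Of the 8 amino acid carriers, 7 had a higher mean in HS, and their log2 fold changes had a median of 0.27. Without PF replicate 3 it was 5 of 8, with a median of 0.09, and without PF replicates 1 and 3 it was 3 of 8, SLC25A13, SLC25A15 and SLC25A44. SLC25A13 (citrin) and SLC25A12 (aralar) bring glutamate into the matrix in exchange for aspartate, the step that gives the malate-aspartate shuttle its direction and passes reducing equivalents of cytosolic NADH to mitochondria. SLC25A13 (cluster 12855785) had signals of 7.76, 7.47, 7.00 and 7.59 in HS cows, and 6.21, 6.95, 7.31 and 6.76 in PF cows. All 4 HS cows were above the PF median, but HS replicate 3 lay below PF replicate 3, so that the groups overlapped. Its means were 7.46 ± 0.33 in HS and 6.81 ± 0.46 in PF (SD, n = 4 each). This difference of 0.65 on the log2 scale (standard error 0.25, 95% confidence interval 0.08 to 1.22) is a 1.57-fold higher signal in HS, with p = 0.031 in limma, an adjusted p of 0.683 and an exact two-sided permutation p of 0.0571, where the smallest p that 4 against 4 arrays allow is 0.0286. It did not pass 0.05 in the methods' t-test, and SLC25A13 no longer met the thresholds when HS replicate 1, HS replicate 2, HS replicate 4, PF replicate 1 or PF replicate 4 was left out. The log2 fold change stayed positive in all 8 repeats that left out 1 array, between 0.45 without PF replicate 1 and 0.81 without PF replicate 3 (limma, adjusted p = 0.305).

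SLC25A12 gave a different order of the same arrays. Its signals were 8.98, 8.95, 9.03 and 8.64 in HS cows, and 8.51, 9.15, 6.84 and 9.06 in PF cows. PF replicate 3 was far below all others, whereas PF replicates 2 and 4 were above every HS cow. HS minus PF it gave 0.51 on the log2 scale (standard error 0.47, adjusted p = 0.768), and -0.01 without PF replicate 3. SLC25A13 and SLC25A12 thus had values in opposite directions in PF replicate 3, which was the highest PF array for the first and the lowest for the second.

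The oxoglutarate carrier SLC25A11 (cluster 12761166) exchanges malate for 2-oxoglutarate and is the other carrier of the malate-aspartate shuttle. It had signals of 9.68, 9.63, 9.30 and 9.55 in HS cows, and 9.31, 9.35, 8.13 and 9.38 in PF cows. Apart from PF replicate 3 the PF cows lay within 0.1 of each other and inside the HS range. Its log2 fold change was 0.50 (standard error 0.28, adjusted p = 0.690, exact permutation p = 0.114) and 0.19 without PF replicate 3. The enzymes of the shuttle had the same dependence on that array. The aspartate aminotransferases GOT1 and GOT2 had log2 fold changes of 0.20 and 0.47, and the malate dehydrogenases MDH1 and MDH2 of 0.28 and 0.32. None of the 4 met the thresholds, and all 4 were lowest in PF replicate 3. Their log2 fold changes without it were -0.09 for GOT1, 0.13 for GOT2, -0.03 for MDH1 and 0.11 for MDH2, so SLC25A13 was the member of the shuttle whose difference was not smaller without that array.

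The other amino acid carriers did not pass the test. SLC25A15, the ornithine carrier, had log2 signals of 7.33 to 7.82 in HS and 6.44 to 7.53 in PF and a log2 fold change of 0.44 (adjusted p = 0.683), which was 0.22 without PF replicate 3. SLC25A44, which takes branched-chain amino acids into mitochondria in mouse, had 8.31 to 8.48 in HS and 7.52 to 8.36 in PF, a log2 fold change of 0.28 that was 0.08 without PF replicate 3. SLC25A38, which brings in glycine for heme synthesis, had a log2 fold change of 0.26, SLC25A29, a carrier of basic amino acids, 0.20, and SLC25A22, a glutamate carrier, 0.01. Without PF replicate 3 these values were 0.09 for SLC25A38, 0.15 for SLC25A29 and -0.25 for SLC25A22. SLC25A2, a second ornithine carrier, had a log2 fold change of -0.05 at a weak mean signal of 3.53.

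**Figure D2:**
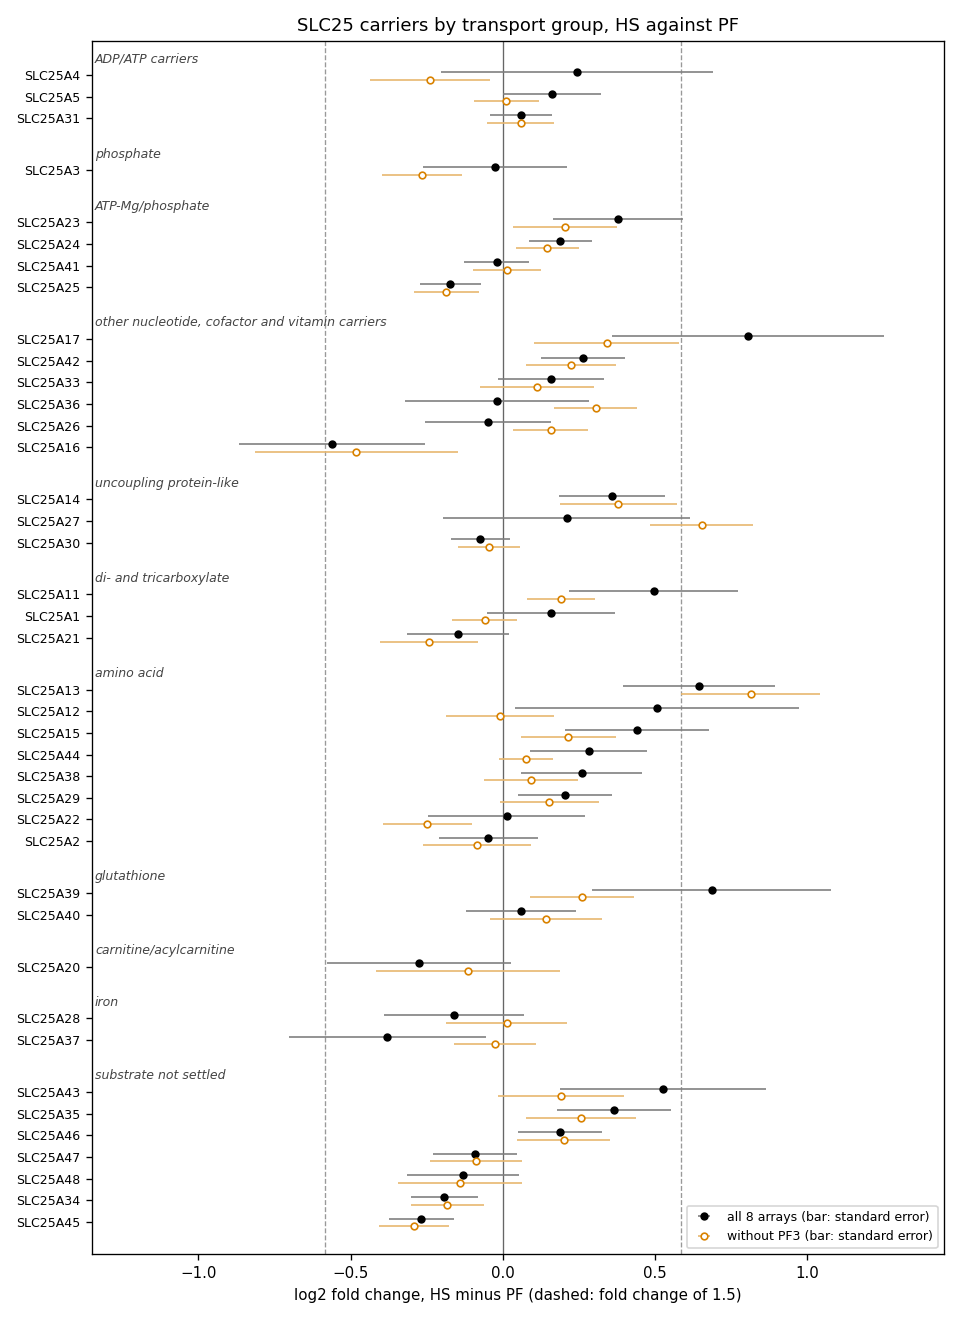
Log2 fold change, HS minus PF, of 40 SLC25 carriers by transport group (black points, all 8 arrays; open orange points, without PF replicate 3; bars, standard error; dashed lines, a fold change of 1.5). SLC25A13 lay at 0.65 and 0.81, whereas SLC25A17, SLC25A39, SLC25A12 and SLC25A11 lay nearer to 0 without PF replicate 3 and SLC25A27 lay farther from it.

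The 2 carriers with the highest log2 fold changes, SLC25A17 and SLC25A39, also turned on the PF cows. SLC25A17 is the peroxisomal member of the family and transports coenzyme A, FAD and related nucleotides. Its cluster (12864809), the brightest of the family, had signals of 10.59, 10.74, 10.19 and 10.36 in HS cows, and 9.58, 10.55, 8.27 and 10.26 in PF cows. PF replicates 1 and 3 were below all HS cows, and PF replicates 2 and 4 were within the HS range. The means were 10.47 ± 0.25 in HS and 9.66 ± 1.01 in PF (SD, n = 4 each), a difference of 0.81 on the log2 scale (standard error 0.45, adjusted p = 0.688, exact permutation p = 0.171). Leaving out PF replicate 3 gave 0.34 and leaving out PF replicate 1 as well gave 0.07, whereas it was 1.10 and met the thresholds without PF replicate 2.

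SLC25A39 is needed for the import of glutathione into mitochondria in human and mouse cells. It (cluster 12769217) had signals of 9.35, 9.25, 8.92 and 9.19 in HS cows, and 8.56, 9.03, 7.21 and 9.16 in PF cows. PF replicate 3 was lowest by a wide margin, followed by PF replicate 1, and the other PF cows overlapped with HS. Its log2 fold change was 0.69 (standard error 0.39, adjusted p = 0.693, exact permutation p = 0.143). With PF replicate 3 left out it was 0.26, and with PF replicate 1 left out as well 0.08. Its close relative SLC25A40 had 6.08 to 6.73 in HS and 6.16 to 6.64 in PF, a log2 fold change of 0.06.

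**Figure D3:**
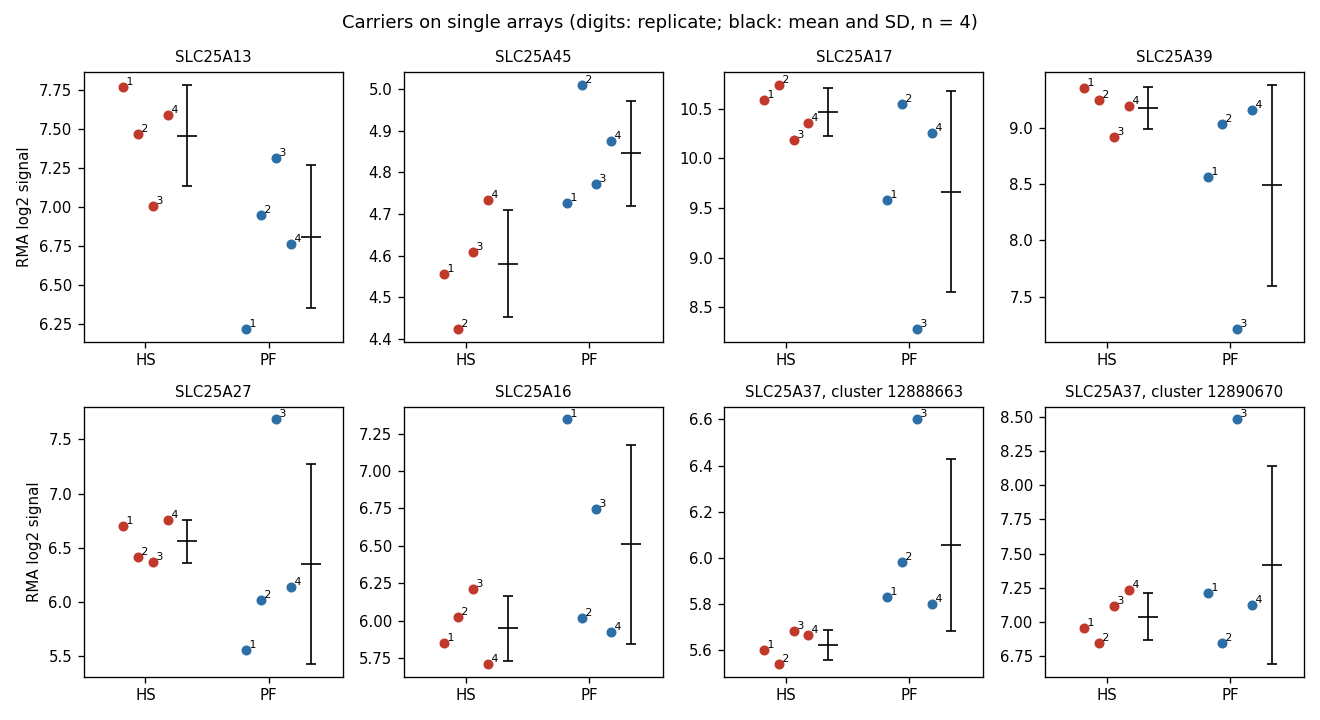
RMA log2 signals of 7 SLC25 carriers on single arrays (red, HS; blue, PF; digits, replicate; black, mean and SD, n = 4 each; SLC25A37 with both clusters). SLC25A13 overlapped only through HS replicate 3 and PF replicate 3, SLC25A17 and SLC25A39 had their spread in PF replicates 1 and 3, and the 4 HS values of SLC25A37 cluster 12888663 lay between 5.54 and 5.68, below all PF values.

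Carriers of the ATP supply included some of the brightest clusters of the family and the weakest, and none met the thresholds. SLC25A3, the phosphate carrier, and the ADP/ATP carriers SLC25A4, SLC25A5 and SLC25A31 deliver the substrates of the ATP synthase and export the ATP. SLC25A3 (cluster 12857257) had signals of 9.85, 9.83, 9.69 and 9.50 in HS cows, and 10.18, 9.95, 9.02 and 9.81 in PF cows. The HS values lay inside the PF range, and the log2 fold change was -0.03 (standard error 0.24, 95% confidence interval -0.57 to 0.52, adjusted p = 0.982), with 0.03 after array medians were subtracted. Without PF replicate 3, its lowest array, it was -0.27 (adjusted p = 0.502). SLC25A5 (cluster 12902960) had 9.82, 9.71, 9.50 and 9.59 in HS, and 9.73, 9.62, 9.04 and 9.58 in PF. All but PF replicate 3 were within 0.4 of each other, and the log2 fold change was 0.16 (standard error 0.16, 95% confidence interval -0.21 to 0.53, adjusted p = 0.785) and 0.01 without that array. SLC25A4, the isoform of heart and muscle, had 6.44 to 7.25 in HS and, in PF, 7.10, 7.24, 5.18 and 7.00. Its log2 fold change of 0.24 was -0.24 without PF replicate 3. SLC25A31, the isoform of germ cells, gave a signal of 2.41 to 2.67 in HS and 2.44 to 2.68 in PF, the weakest of the family. The ATP-Mg/phosphate carriers, which adjust the adenine nucleotide pool of the matrix, had log2 fold changes of 0.38 (SLC25A23), 0.19 (SLC25A24), -0.02 (SLC25A41) and -0.17 (SLC25A25).

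Citrate and 2-oxo acids leave or enter the matrix through the di- and tricarboxylate carriers. The citrate carrier SLC25A1 (cluster 12745488), which supplies acetyl groups for the synthesis of fatty acids and cholesterol, had signals of 9.20, 9.24, 8.98 and 9.17 in HS cows, and 9.06, 9.25, 8.33 and 9.30 in PF cows. Except for PF replicate 3 the groups lay in the same range. HS and PF differed by 0.16 on the log2 scale (standard error 0.21, 95% confidence interval -0.32 to 0.64, adjusted p = 0.838) and -0.06 without PF replicate 3. ATP-citrate lyase (ACLY), which splits the exported citrate, had a log2 fold change of 0.50, and citrate synthase (CS), which makes it in the matrix, one of 0.45. Both were lowest in PF replicate 3, and without it the values were 0.19 and 0.10. The cytosolic isocitrate dehydrogenase IDH1 had an unadjusted p under 0.05 but a log2 fold change of 0.40 (adjusted p = 0.683), below the fold threshold, and 0.31 without that array. SLC25A21, the oxodicarboxylate carrier, had a mean of 4.33 and a log2 fold change of -0.15.

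The uncoupling protein-like carriers SLC25A14, SLC25A27 and SLC25A30 had log2 fold changes of 0.36, 0.21 and -0.07. SLC25A27, also called UCP4 and known best from brain, had signals of 6.70, 6.42, 6.37 and 6.76 in HS cows, and 5.56, 6.02, 7.68 and 6.14 in PF cows. The PF cows fell on either side of the HS range, with PF replicate 3 above and the other 3 below all HS cows. On all arrays this gave a difference of 0.21 on the log2 scale (standard error 0.41, adjusted p = 0.895), and without PF replicate 3 one of 0.65 (adjusted p = 0.285), which met the thresholds. UCP2, a related carrier with a name of its own that exchanges 4-carbon metabolites for phosphate, had 9.11, 9.14, 9.21 and 8.51 in HS, and 9.74, 9.50, 8.43 and 9.61 in PF. Here PF replicate 3 was below and the other 3 PF cows above all HS cows, the reverse of SLC25A27. Its log2 fold change was -0.33 (adjusted p = 0.768), and -0.63 without PF replicate 3, which also met the thresholds. UCP1, UCP3, MTCH1 and MTCH2, the remaining family members with names of their own, had log2 fold changes of -0.06, -0.19, 0.16 and 0.07, and none of the 5 met the thresholds on all arrays.

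Acylcarnitines enter the matrix through SLC25A20 in exchange for carnitine, between the carnitine palmitoyltransferases of the outer (CPT1) and the inner (CPT2) membrane. SLC25A20 (cluster 12795827) had signals of 5.59, 5.89, 5.90 and 6.17 in HS cows, and 6.67, 5.28, 6.64 and 6.05 in PF cows. PF replicates 1 and 3 were above and PF replicate 2 below all HS cows. Its mean differed by -0.27 on the log2 scale (standard error 0.30, adjusted p = 0.803, exact permutation p = 0.457), and 0.22 without PF replicates 1 and 3. When 1 array was left out it ranged from -0.57 without PF replicate 2, with an unadjusted p under 0.05 (adjusted p = 0.393), to -0.11 without PF replicate 1. The liver form CPT1A had 9.86, 9.65, 9.37 and 9.30 in HS, and 9.21, 8.55, 7.78 and 9.30 in PF, with a log2 fold change of 0.84 (adjusted p = 0.683). The muscle form CPT1B had a log2 fold change of 0.74 (adjusted p = 0.683) and the brain form CPT1C one of -0.69 (adjusted p = 0.641). All 3 met the thresholds. With PF replicate 3 left out CPT1A (0.53) and CPT1B (0.58) no longer met them, and CPT1C (-0.69) still did. CPT2 had a log2 fold change of 0.45 and the carnitine acetyltransferase CRAT one of 0.04. The carrier therefore had its mean difference in the direction opposite to that of CPT1A, CPT1B and CPT2, which was not tested as a difference between genes.

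**Figure D4:**
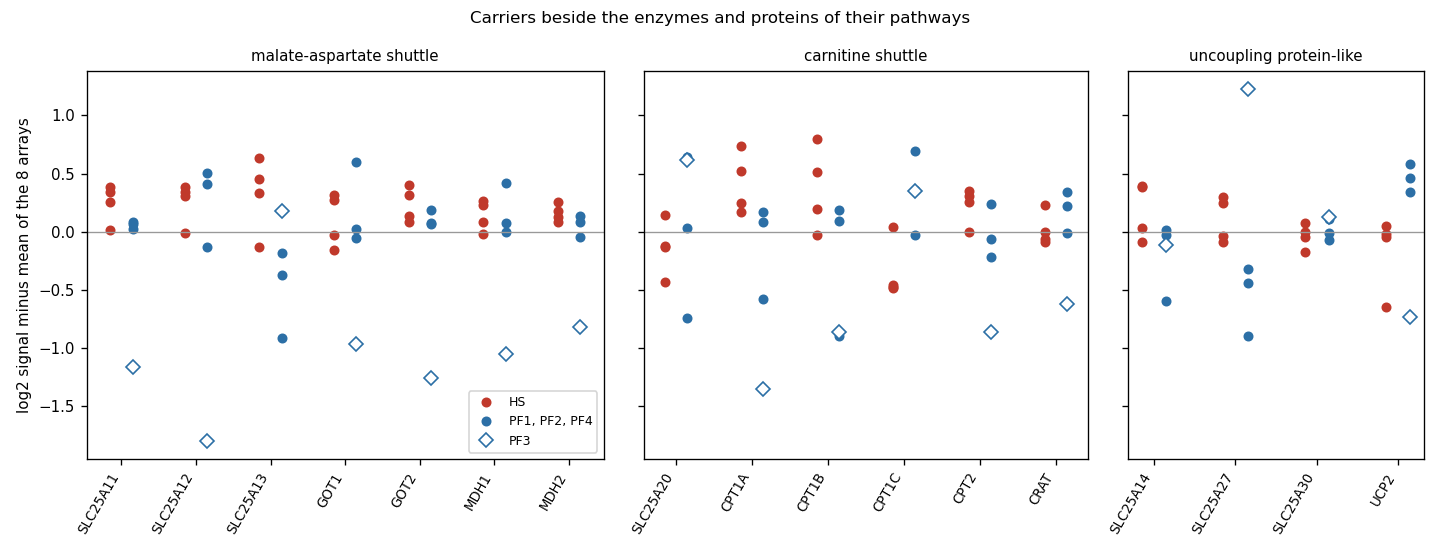
Log2 signal minus the mean of the 8 arrays for carriers and the proteins of their pathways (red circles, HS; filled blue circles, PF replicates 1, 2 and 4; open blue diamonds, PF replicate 3), for the malate-aspartate shuttle, the carnitine shuttle and the uncoupling protein-like carriers with UCP2. PF replicate 3 was the lowest array for SLC25A11, SLC25A12, GOT1, GOT2, MDH1 and MDH2 but not for SLC25A13, and it was above all HS cows for SLC25A27 and below them for UCP2.

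Iron enters mitochondria through the mitoferrins SLC25A37 and SLC25A28, of which the first serves heme synthesis in red cell precursors and the second other cells. The 2 clusters of SLC25A37 differ in what they stand for. The brighter cluster (12890670) carries an accession that RefSeq now lists as LOC523756, with SLC25A37 among its synonyms, and the dimmer cluster (12888663) carries that of SLC25A37 itself. Cluster 12890670 had 6.96, 6.84, 7.11 and 7.23 in HS cows, and 7.21, 6.85, 8.48 and 7.13 in PF cows. PF replicate 3 alone stood above the rest, and HS minus PF gave -0.38 on the log2 scale (standard error 0.32, adjusted p = 0.754) and -0.02 without it. Cluster 12888663, described after its values were seen, had 5.60, 5.54, 5.68 and 5.67 in HS, and 5.83, 5.98, 6.60 and 5.80 in PF. The 4 HS cows were below all 4 PF cows, which held in this direction for 2.00% of all clusters. Its log2 fold change was -0.43 (standard error 0.18, adjusted p = 0.683, exact permutation p = 0.0286, the smallest possible), below the fold threshold, and -0.25 without PF replicate 3. SLC25A28 had 7.46, 7.56, 7.56 and 8.29 in HS, and 7.75, 7.70, 8.40 and 7.67 in PF, with 1 high array in each group and a log2 fold change of -0.16. Markers of blood cells were also lower in HS on average. The erythrocyte list, 6 of whose 7 genes had a lower mean in HS, had means of 4.12 to 4.37 in HS and 4.28 to 4.53 in PF, and its mean was highest in PF replicate 1 (4.53) and not in PF replicate 3 (4.40). HBB (4.07 to 4.57 in HS and 4.32 to 5.32 in PF) was highest in PF replicate 3, where HBA (4.86) and HBM (3.89) had their lowest PF values. The myeloid list, with all 8 genes lower in HS and highest in PF replicate 3, had means of 5.69 to 6.81 in HS and 5.83 to 8.66 in PF. The median log2 fold changes of the erythrocyte and myeloid lists were -0.14 and -0.92, and -0.09 and -0.35 without PF replicate 3. In HS replicate 4, the high HS array of SLC25A28, the erythrocyte mean was 4.22 and the myeloid mean 5.80. The part of these cells in the SLC25A37 and SLC25A28 signals was not tested.

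Carriers of other nucleotides, cofactors and vitamins were split, with 3 of 7 higher in HS. SLC25A16, which has been linked to the coenzyme A supply of mitochondria, had the lowest log2 fold change of all carriers. Its signals (cluster 12827782) were 5.86, 6.02, 6.21 and 5.71 in HS cows, and 7.34, 6.02, 6.75 and 5.93 in PF cows. PF replicates 1 and 3 were above all HS cows and PF replicates 2 and 4 within their range. HS minus PF came to -0.56 on the log2 scale (standard error 0.31, adjusted p = 0.686, exact permutation p = 0.2). This was -0.75 and met the thresholds without PF replicate 4, and it was -0.28 without PF replicate 1 and -0.02 with PF replicate 3 left out as well. SLC25A42, a coenzyme A carrier, had 5.99 to 6.20 in HS and 5.52 to 6.09 in PF and a log2 fold change of 0.26 (adjusted p = 0.683). The pyrimidine nucleotide carriers SLC25A33 and SLC25A36 had log2 fold changes of 0.16 and -0.02, and the second was 0.31 without PF replicate 3, which at 9.66 was its highest array. SLC25A26, the carrier of S-adenosylmethionine, had a log2 fold change of -0.05, which was 0.16 without PF replicate 3.

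The 7 carriers counted here as having no settled substrate gave 3 higher and 4 lower means. SLC25A45 (cluster 12833908) had signals of 4.56, 4.42, 4.61 and 4.73 in HS cows, and 4.73, 5.01, 4.77 and 4.87 in PF cows. Only HS replicate 4 and PF replicate 1 overlapped, by less than 0.01. The means were 4.58 ± 0.13 in HS and 4.85 ± 0.13 in PF (SD, n = 4 each), a difference of -0.27 on the log2 scale (standard error 0.11, p = 0.0368, adjusted p = 0.683, exact permutation p = 0.0571) at a signal under the array median. It lay between -0.32 and -0.21 when single arrays were left out, and below the fold threshold in each case. The unadjusted p was no longer under 0.05 without HS replicate 1, HS replicate 2, HS replicate 3, PF replicate 2 or PF replicate 4, nor after subtraction of array medians, after quantile normalization once more or with the replicate number as a block. SLC25A43 had 6.34 to 6.82 in HS and 5.09 to 6.72 in PF with a log2 fold change of 0.53, which was 0.19 without PF replicate 3. SLC25A35 had a log2 fold change of 0.37 and SLC25A46, a protein of the outer mitochondrial membrane, one of 0.19. SLC25A34, SLC25A47 and SLC25A48 had -0.19, -0.09 and -0.13, all with mean signals under 5.5.

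Some relatives carry other symbols in the table and are outside the rule. By their accessions MCART1 is SLC25A51, which brings NAD into mitochondria, MCART6 is SLC25A53 and LOC782162 is SLC25A32, a carrier of folate and FAD. Their log2 fold changes were -0.05, 0.30 and -0.14, and their adjusted p lay between 0.683 and 0.936. No row with the single symbol SLC25A6, SLC25A10 or SLC25A18 entered the rule, and these carriers were not analysed here.

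Neighbouring mitochondrial gene lists were examined in the same fit. Among the 12 measured genes for import and insertion of carriers, 7 had a higher and 5 a lower mean in HS, and the median log2 fold change was 0.08 (-0.07 without PF replicate 3). TIMM22, the pore of the translocase that inserts carriers into the inner membrane, alone met the thresholds (8.33%, beside 2.21% of all clusters). It had 7.53, 7.52, 7.12 and 7.32 in HS, and 6.52, 7.27, 5.83 and 6.67 in PF, so that HS replicate 3 and PF replicate 2 overlapped. Its log2 fold change was 0.80 (adjusted p = 0.683), and 0.55, below the fold threshold, without PF replicate 3. Of 17 enzymes of mitochondrial shuttles and related steps, 13 were higher and 4 lower in HS. The thresholds were met by 4 (23.5%, beside 2.21% of all clusters). These were CPT1A, CPT1B and the glycerol-3-phosphate dehydrogenase GPD2 (log2 fold change 0.63, adjusted p = 0.683) as higher and CPT1C as lower in HS. This list was chosen with earlier results of these data known, and the paper already names GPD2 and CPT1C in its affected pathways. The share therefore cannot serve as a test against that of all clusters. Without PF replicate 3, GPD2 (0.61) and CPT1C (-0.69) still met the thresholds, and CPT1A and CPT1B did not. The median of the list was 0.32, and 0.11 without PF replicate 3. Of 19 other mitochondrial transport proteins, among them the pyruvate carrier, the VDAC pores and the calcium uniporter, 13 were higher and 6 lower and none met the thresholds, with a median of 0.14 (-0.01 without PF replicate 3). Of 8 regulators of mitochondrial biogenesis, 3 were higher and 5 lower, none past the thresholds, with a median of -0.04.

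The subunits of oxidative phosphorylation and the mitochondrial ribosomal proteins had the same low array as the bright carriers. Of 83 subunits, 60 were higher and 23 lower in HS. Their median log2 fold change was 0.11, none met the thresholds, and 66 (79.5%) were lowest in PF replicate 3. Of 76 ribosomal proteins, 53 were higher and 23 lower with a median of 0.07. MRPS6 alone met the thresholds (1.32%, beside 2.21% of all clusters), and 57 (75.0%) were lowest in PF replicate 3. That array was the lowest in 22.8% of all clusters and in 47.8% of the clusters with a mean signal of at least 8. Without that array the medians were -0.06 and -0.04, and 26 of the 83 and 26 of the 76 were higher in HS. Of 290 SLC genes of other families, 133 were higher and 157 lower, with a median of -0.02. The thresholds were met by 12 (4.14%, beside 2.21% of all clusters), 10 as higher and 2 as lower in HS. Over all clusters 1.58% met them as higher and 0.627% as lower. The paper already reports up-regulated members of the solute carrier family from these data, so this share cannot serve as a test. These 290 genes were lowest in PF replicate 3 in 23.1% of cases, close to the 22.8% of all clusters.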

How the data were processed

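RNA of mural granulosa cells was hybridized to Bovine Gene 1.0 ST arrays, 1 per cow. The authors processed the arrays with the Expression Console by RMA with default settings, and the deposited values are log2 signals of 26773 transcript clusters, normalized between the arrays. A second deposited table held the same values. A genome build is not given in the sources used here, so no coordinates are printed.

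HS minus PF was fitted on all 8 arrays in limma 3.58.1 (lmFit, eBayes; R 4.3.3), without a filter on weak signals and with Benjamini-Hochberg adjustment across all clusters. The study's thresholds were applied to unadjusted p. Single carriers were also tested by exact permutation (two-sided, 70 assignments). The fit was tested on simulated data. Precision is limited by the number of arrays.

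Values of 1 of the 41 carriers are not reported here, although it is part of the counts, medians and ranges over the family. The carriers and gene lists were chosen with earlier results of these data known. Described by array are carriers past the thresholds, with an unadjusted p under 0.05 or without overlap, the 3 highest and 3 lowest log2 fold changes at a mean of at least 5, and the 6 highest means. SLC25A12, SLC25A4, SLC25A27, SLC25A28, the second cluster of SLC25A37, UCP2, CPT1A and TIMM22 were added after their values were seen. Of 28 carriers with a RefSeq accession, 27 were found in RefSeq (ARS-UCD2.0), 26 under the same symbol.

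Alternatives concerned the test (the methods' t-test, a variance trend in eBayes, weights for arrays, replicate numbers as blocks), the clusters (mean signal of 5 or more, single symbol, mean over the clusters of a symbol), the scaling (subtraction of array medians, repeated quantile normalization), the table and the arrays (each omitted in turn and, added later, PF replicates 1 and 3 together).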

Additional observations from a re-analysis of the deposited data

Results flagged for a closer look

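Among the 40 carriers whose values are reported, each examined in HS and in PF, a single cow stood apart from the other 3 of its group in 8 cases. This was judged by Dixon's criterion (the gap to its neighbour as a share of the group's range), which flags about 1 in 20 groups by chance. In PF replicate 3 the low signals were those of SLC25A11 (8.13, other PF cows 9.31 to 9.38), SLC25A44 (7.52, others 8.30 to 8.36) and SLC25A4 (5.18, others 6.996 to 7.242), and the high signal was that of SLC25A28 (8.40, others 7.67 to 7.75). These 4 are 9.76% of the carriers, and PF replicate 3 stood apart in this way in 4.12% of all clusters, the highest share of the 8 arrays. In HS replicate 4 SLC25A28 was high (8.29, other HS cows 7.46 to 7.56) and SLC25A29 was high (7.16, others 6.90 to 6.93). The log2 fold change of SLC25A28, -0.16 on all arrays, was -0.35 without HS replicate 4 and 0.01 without PF replicate 3. SLC25A33 was high in PF replicate 2 (5.83, other PF cows 5.21 to 5.24), and its log2 fold change was 0.16 on all arrays and 0.31 without that cow. SLC25A41 was low in PF replicate 1 (4.81, others 5.11 to 5.15). Over all clusters HS replicate 4 stood apart in this way in 1.72%, PF replicate 2 in 0.971% and PF replicate 1 in 1.57%.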

How the results depend on the processing

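No carrier passed an adjusted p of 0.05 in limma under any of the 19 alternatives, nor in the methods' t-test. The count of carriers past the study's thresholds, 1 on all arrays, was 0 with the methods' t-test and 0 to 2 when 1 array was left out, the second being SLC25A17 without PF replicate 2 and SLC25A27 without PF replicate 3, while without PF replicate 4 the single carrier was SLC25A16 in place of SLC25A13. The count with an unadjusted p under 0.05, 2 on all arrays, was 1 with the methods' t-test, 1 among carriers with a mean log2 of at least 5, 1 after quantile normalization once more and 0 to 4 when 1 array was left out. Over all clusters 591 met the thresholds, 355 with the methods' t-test and 333 (without HS replicate 1) to 1566 (without PF replicate 2) when 1 array was left out. After array medians were subtracted 564 of 672 such clusters were higher in HS, against 423 of 591 before. For the 11 carriers followed singly, 190 of 208 alternative values kept direction and side of the threshold, 7 were no longer past it, all of SLC25A13, and 2 were newly past it. Direction turned in 9. SLC25A3 was 0.031 with array medians subtracted and -0.27 (without PF replicate 3) to 0.12 when 1 array was left out, above 0 without HS replicate 4, PF replicate 1 or PF replicate 2. SLC25A1 was -0.067 with array weights and -0.059 to 0.26 when 1 array was left out, the lowest without PF replicate 3. Without PF replicates 1 and 3, a setting added after the data were seen, it was -0.13, SLC25A37 was 0.05 and SLC25A20 was 0.22. The cause was not tested. For the 6 carriers with a mean log2 under 5, among them SLC25A45, the weak signal limits what a difference can show.

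Whether cows of the same replicate number shared more than the number is not given in the sources used here. The correlations of their deviations from the group means were -0.27, 0.21, 0.08 and 0.01, which cannot settle it. With the replicate number as a block, 0 carriers met the thresholds (SLC25A13 kept its log2 fold change of 0.65 but not an unadjusted p under 0.05), and 669 clusters did.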
